A study of Rattus rattus with 8 samples.

Results

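The circadian clock genes of the rat whisker hair follicle were followed in each rat of a blast study. The 10 genes are Arntl (NM_024362), Clock (NM_021856), Per1 (NM_001034125), Per2 (NM_031678), Per3 (NM_023978), Cry1 (NM_198750), Cry2 (NM_133405), Nr1d2 (NM_147210), Dbp (NM_012543) and Tef (NM_019194). They were found on the array by RefSeq accession, and all 10 accessions had a probe. Together they had 16 probes with 43 spots, out of 26997 accessions, 30367 probes and 58717 spots that were not controls.

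Whisker follicles were pulled from adult male Sprague-Dawley rats at the end of an observation period that followed a simulated blast, or a sham exposure, under isoflurane anaesthesia. The 3 sham control rats (C1, C2 and C3) had a pressure of 0 kPa, and the 5 blast rats had 145 kPa (M2 and M3), 175 kPa (H1) or 200 kPa (XH1 and XH3). Several follicles of a rat made 1 sample, and each sample was hybridized with 1 dye to 1 of 8 arrays on 1 slide. The observation period was a shorter or a longer one, and neither the period of each rat nor the hour at which follicles were pulled is given in the sources used here.

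The clock is a loop of transcription in which ARNTL and CLOCK pair and switch on the Per and Cry genes, whose proteins return to the nucleus and silence that pair. The Rev-erb receptors, of which Nr1d2 encodes one, repress Arntl, and the PAR bZIP factors DBP and TEF carry the rhythm to output genes through D-box elements. In tissues with a running clock, Arntl RNA peaks at about the opposite time of day to Per and Dbp RNA, and hair follicle cells are known to keep such a rhythm.

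All values of genes are quantile-normalized log2 intensities, on which a difference of 1 is a doubling, and a gene with several probes is given by its brightest probe. A probe was taken as well above background on an array when most of its spots were marked so by the scanner software. Of the 10 genes, 8 were well above background on all 8 arrays. Clock was so on 7 arrays, with M3 the exception, and Nr1d2 on 0. None of the 16 probes was saturated on any array. The probes of hair keratins and of other cell types could not be named from the gene table used here, so the tissue was not checked against its markers. The tissue is a bulk sample, in which fewer cells of a type and less RNA per cell cannot be told apart.

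The first question is whether the clock genes of the follicle differed between blast and sham control rats. In limma, 0 of the 10 clock genes had an unadjusted p under 0.05, where 2.80% of all probes had (850 of 30366). After Benjamini-Hochberg adjustment over all probes the count was 0 of 10, against 0.00% of all probes (0 of 30366), and the adjusted p of each clock gene was 0.9999. The exact permutation test over rats also placed 0 of the 10 genes under 0.05. The share of all probes under 0.05 by that test is not given here. The values of the blast rats and the sham control rats overlapped in all 10 genes, while 2.0% of probes did not overlap (605 of 30217). Leaving aside Nr1d2, which was at background, 6 genes had a higher mean and 3 a lower mean in the blast rats, with a median difference of 0.17 over these 9 genes, where the median over all probes was 0.00. For none of the 10 genes did the difference between the groups stand out from the spread between rats, and that spread differed from gene to gene.

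**Figure D1:**
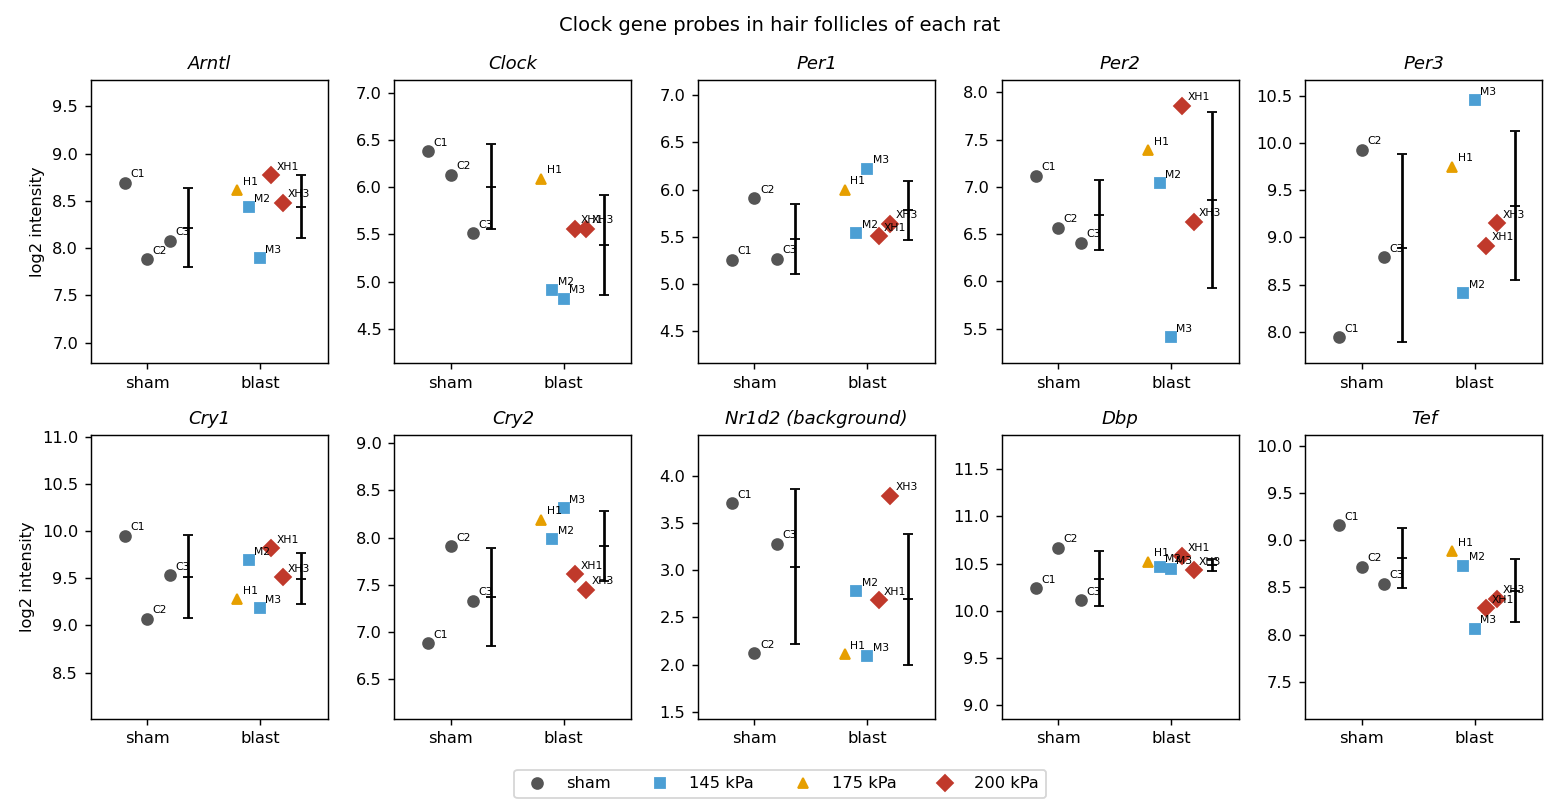
Log2 intensity (vertical axis, each panel spanning the same range) of the brightest probe of each clock gene in 3 sham control rats (grey circles) and 5 blast rats (145 kPa squares, 175 kPa triangle, 200 kPa diamonds), with the mean and SD of each group as a bar to its right. The groups overlap in every panel, Per3 and Per2 spread over 2.51 and 2.45, Dbp over 0.56, and Nr1d2 was not well above background on any array.

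Arntl, the partner of CLOCK in the activating pair, was at 8.69, 7.88 and 8.08 in C1, C2 and C3. In the blast rats it was at 8.43 in M2, 7.89 in M3, 8.61 in H1, 8.77 in XH1 and 8.48 in XH3. XH1 alone lay above every sham control rat, and the lowest blast rat, M3, lay next to the lowest sham control rat, C2. The means were 8.22 ± 0.42 (SD, n = 3) and 8.43 ± 0.33 (SD, n = 5), a difference of 0.22 (SE 0.25, 95% confidence interval −0.38 to 0.81, exact permutation p = 0.429). The size rested on single sham control rats, with 0.05 without C2 and 0.46 without C1, and it was 0.14 without XH1 and 0.36 without M3. A further Arntl probe, well above background on 6 arrays, followed the brightest across the 8 rats with r = 0.96 and had a difference of 0.35. Both probes therefore ordered the rats in much the same way.

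Clock, which encodes the other partner, was at 6.38, 6.13 and 5.51 in C1, C2 and C3, and at 4.91, 4.82, 6.09, 5.56 and 5.56 in M2, M3, H1, XH1 and XH3. The rats at 145 kPa were the lowest of all and lay below every sham control rat, whereas H1 lay among the sham control rats. The mean was 6.01 ± 0.45 (SD, n = 3) in sham control and 5.39 ± 0.53 (SD, n = 5) in blast rats, a difference of −0.62 (SE 0.34, 95% confidence interval −1.41 to 0.18, exact permutation p = 0.161). With normexp it was −0.31 and with array quality weights −0.28. Without H1 it was −0.79 and limma's unadjusted test passed 0.05, as did 5.43% of all probes in that fit, while the exact permutation p was 0.171 and limma's adjusted p was 0.9055. The intensity of Clock in M3 is only a bound, since it was not well above background there, and the gene's other probe was not well above background on any array.

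Among the negative limb, the period genes Per2 and Per3 varied most between rats. Per3 was at 7.94 in C1, 9.93 in C2 and 8.79 in C3, and at 8.41 in M2, 10.45 in M3, 9.75 in H1, 8.91 in XH1 and 9.15 in XH3. The highest rat, M3, and the lowest, C1, differed 5.68-fold, and the rats of a single pressure, M2 and M3, stood near opposite ends. The mean was 8.89 ± 1.0 (SD, n = 3) in sham control and 9.33 ± 0.79 (SD, n = 5) in blast rats, a difference of 0.45 (SE 0.57, 95% confidence interval −0.89 to 1.79, exact permutation p = 0.5). The direction rested on C1, without which the difference was −0.03, and it was 0.97 without C2, 0.68 without M2 and 0.17 without M3. The pooled SD within groups was 0.86, larger than that of 91.7% of the 16873 probes well above background on all arrays, whose median was 0.39. A further Per3 probe that was well above background on all 8 arrays moved less closely with it (r = 0.45, difference −0.02) and had a range of 1.22, against 2.51 for the brightest probe. The remaining probe was not well above background on any array, with a range of 1.96 and r = 0.78 to the brightest.

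Per2 was at 7.12, 6.57 and 6.41 in C1, C2 and C3. It was at 7.04 in M2, 5.41 in M3, 7.39 in H1, 7.86 in XH1 and 6.63 in XH3. The blast rats lay on both sides of the sham control rats, with H1 and XH1 above all of them and M3 below, and the range was 5.45-fold. The mean was 6.70 ± 0.37 (SD, n = 3) in sham control and 6.87 ± 0.93 (SD, n = 5) in blast rats, a difference of 0.17 (SE 0.53, 95% confidence interval −1.06 to 1.40, exact permutation p = 0.804). Without XH1 the difference was −0.08, and with other single rats left out it lay between 0.02 (C3) and 0.53 (M3), with 0.38 without C1, 0.04 without H1 and 0.10 without C2. With the slide row as a block it was 0.31. The pooled SD within groups was 0.79, above that of 89.7% of the probes well above background on all arrays. The Per2 probe was printed 10 times on each array, and the SD between these spots, which covers error within an array only, had a median of 0.12 (0.09 to 0.46).

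Per1 was at 5.26, 5.91 and 5.27 in C1, C2 and C3, and at 5.54, 6.22, 6.0, 5.51 and 5.64 in M2, M3, H1, XH1 and XH3. M3 and H1 lay above every sham control rat, and C2 stood apart from the other sham control rats on the high side, as it did for Per3. The means of 5.48 ± 0.37 (SD, n = 3) in sham control and 5.78 ± 0.31 (SD, n = 5) in blast rats differed by 0.30 (SE 0.24, 95% confidence interval −0.25 to 0.85, exact permutation p = 0.268). It was 0.52 without C2 and 0.19 without C1, C3 or M3, and with normexp it was 0.08.

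Neither of the cryptochromes, the partners of the period proteins in repression, passed 0.05 between blast and sham control rats. Cry2 was at 6.88, 7.91 and 7.33 in C1, C2 and C3, and at 7.98, 8.31, 8.19, 7.61 and 7.45 in M2, M3, H1, XH1 and XH3. M2, M3 and H1 lay above every sham control rat, and the rats at 200 kPa lay between C3 and C2. The mean was 7.37 ± 0.52 (SD, n = 3) in sham control and 7.91 ± 0.37 (SD, n = 5) in blast rats, a difference of 0.54 (SE 0.29, 95% confidence interval −0.15 to 1.22), which is 1.45-fold (0.904-fold to 2.33-fold). Its exact permutation p of 0.125 was the lowest of the 10 genes and did not pass 0.05. Within the rows of the slide the difference was 0.70 in row 1, with 2 rats of each group, and 0.46 in row 2, where C3 was the only sham control rat. The red cell marker Hbb, described with the array signal, also had a higher mean in the blast rats, by 2.84, and its part in the difference of Cry2 was not tested. With array quality weights or normexp it was 0.35. The size rested on single sham control rats: without C1 the difference was 0.29 (exact permutation p = 0.429), and without C2 it was 0.81 (exact permutation p = 0.0476, the smallest that the remaining rats allow, and limma adjusted p = 0.9507).

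Cry1 was at 9.95, 9.07 and 9.53 in C1, C2 and C3, and at 9.69, 9.18, 9.28, 9.82 and 9.51 in M2, M3, H1, XH1 and XH3. All 5 blast rats lay within the range of the sham control rats. The means of 9.52 ± 0.44 (SD, n = 3) in sham control and 9.49 ± 0.27 (SD, n = 5) in blast rats differed by −0.02 (SE 0.24, 95% confidence interval −0.57 to 0.53, exact permutation p = 0.911). The sign was not stable, with 0.19 without C1, 0.03 without H1 and 0.06 without M3, and −0.25 without C2. The interval still allows a change of 1.44-fold upward or to 0.672-fold.

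Nr1d2, which encodes the Rev-erb receptor REV-ERBβ, was not well above background on any of the 8 arrays, with values from 2.09 to 3.79. No fold change is given for it. Its relation to other genes is read as that of a background signal.

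Of the output genes, Dbp had the narrowest spread. It was at 10.24, 10.67 and 10.11 in C1, C2 and C3, and at 10.46, 10.44, 10.52, 10.58 and 10.43 in M2, M3, H1, XH1 and XH3. The 5 blast rats lay close together, inside the range of the sham control rats, with means of 10.49 ± 0.06 (SD, n = 5) and 10.34 ± 0.29 (SD, n = 3). The difference was 0.15 (SE 0.15, 95% confidence interval −0.19 to 0.49, exact permutation p = 0.304). The SD within groups was 0.18, and 5.15% of the probes well above background on all arrays had a smaller one. The gene's other 2 probes, well above background on all arrays, had differences of 0.13 and 0.11, and correlated with the brightest at r = 0.36 and r = 0.48. The probes of Dbp therefore gave similar differences between the groups, but each ordered the rats in its own way. The difference at the brightest probe rested on single sham control rats, since it was 0.03 without C3 (exact permutation p = 0.857), 0.09 without C1 (exact permutation p = 0.571) and 0.31 without C2 (exact permutation p = 0.0476, limma adjusted p = 0.9507).

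Tef, which encodes the other D-box activator, was at 9.16, 8.72 and 8.54 in C1, C2 and C3, and at 8.73, 8.06, 8.88, 8.28 and 8.38 in M2, M3, H1, XH1 and XH3. M3, XH1 and XH3 lay below every sham control rat, and M2 and H1 lay among them. The mean was 8.81 ± 0.32 (SD, n = 3) in sham control and 8.47 ± 0.33 (SD, n = 5) in blast rats, a difference of −0.34 (SE 0.23, 95% confidence interval −0.89 to 0.20, exact permutation p = 0.196). Without C1 it was −0.17, and with array quality weights −0.19. The rats also parted by the row of the slide, since the 4 rats of row 1 (C1, C2, M2 and H1) were all above the 4 of row 2, among them the 3 low blast rats. The share of all probes that part by row in this way is not given here. With the row as a block the difference was −0.21, and within the rows it was −0.14 in row 1 and −0.30 in row 2, where C3 was the only sham control rat. The probe was printed 10 times, with a median SD between spots of 0.07 (0.06 to 0.12).

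The comparison across the pressures asks whether the clock genes followed the strength of the shock wave among the 5 blast rats. In limma, 0 of the 10 clock genes had a slope with an unadjusted p under 0.05, where 2.85% of all probes had (865 of 30353), and 0 of 10 passed after adjustment, against 0.00% of all probes. The lowest p among the clock genes was that of Cry2, with a slope of −0.11 per 10 kPa (95% confidence interval −0.23 to 0.01, exact permutation p = 0.133, limma adjusted p = 0.9999). Its level was 8.15 as the mean of the rats at 145 kPa, 8.19 in H1 and 7.53 as the mean of the rats at 200 kPa. Clock had a slope of 0.13 per 10 kPa (95% confidence interval −0.06 to 0.33, exact permutation p = 0.167), with 4.87 as the mean at 145 kPa, 6.09 in H1 and 5.56 as the mean at 200 kPa. Arntl had a slope of 0.09 per 10 kPa (95% confidence interval −0.05 to 0.22, exact permutation p = 0.167), and Per2 the steepest, of 0.19 (95% confidence interval −0.19 to 0.56, exact permutation p = 0.333). With 1 rat at 175 kPa and 2 at each other pressure, these slopes rest on few animals, and leaving out 1 rat moved the counts. Without M2, 3 of the 10 genes (Per1, Per3 and Cry2) had an unadjusted p under 0.05, but so had 15.8% of all probes, and without H1 1 gene (Clock) and 4.23% of all probes.

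The members of a running loop are known to move in fixed relation to each other over the day. The rats allow correlations between the genes to be measured whatever their group. Since the hour of sampling is not given, these correlations cannot be read as that daily relation. Over the 45 pairs of the 10 genes, 5 pairs had a Pearson correlation with an adjusted exact permutation p under 0.05, and 4 of these were between genes above background. In size their r was at least that of the weakest, Arntl and Per2, which 7.27% of all pairs of probes well above background on all arrays also reached (10350576 of 142340628). Of the 28 pairs of the 8 clock genes that were themselves well above background on all arrays, 4 reached it, or 14.3%. Correlations of this size were thus common on these arrays, and no test was made of whether the clock genes had more of them. By Spearman's rho, 0 of the 45 pairs passed, with a lowest adjusted permutation p of 0.0804, and at an unadjusted exact p under 0.05 there were 12 pairs by Pearson's r and 8 by Spearman's rho. Of the 28 pairs of genes above background, 8 (28.6%) and 6 (21.4%) were at least as strong as the weakest of these, against 19.9% of all pairs of probes above background by Pearson's r and 16.6% by Spearman's rho.

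**Figure D2:**
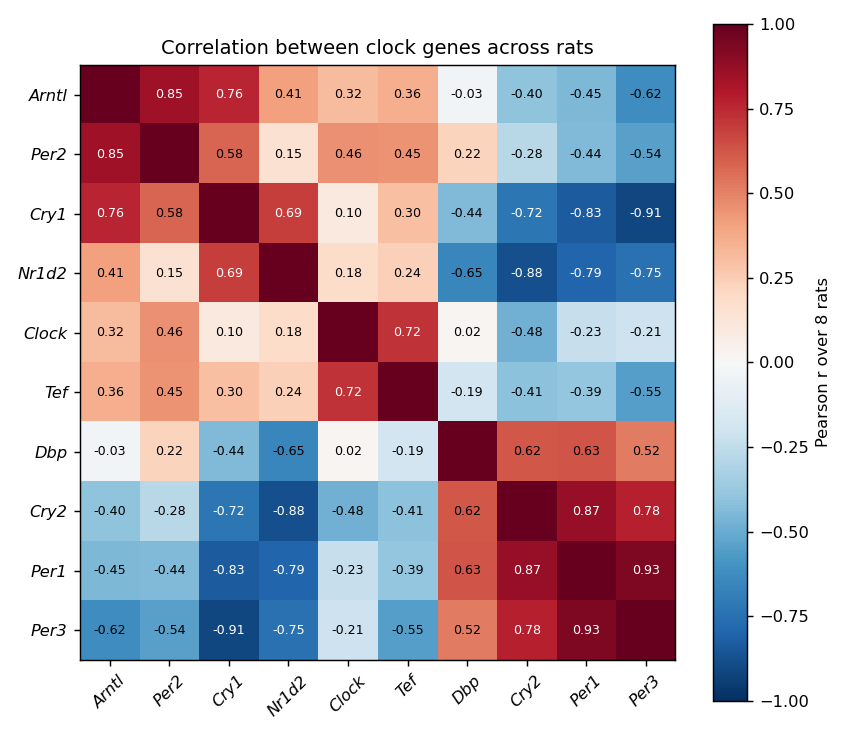
Pearson correlation between the log2 intensities of each pair of clock genes over 8 rats, from −1 (blue) to 1 (red), with the value in each cell. Per1, Per3 and Cry2 are positively correlated with each other (0.78 to 0.93) and negatively with Cry1, while Arntl and Per2 are correlated at 0.85; as plotted, Per3 with Cry2 and Cry1 with Per1 or Cry2 did not pass after adjustment, and Nr1d2 was at background on all arrays.

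Per1 and Per3 varied together across the rats, with r = 0.93 (exact permutation p = 0.00144, adjusted p = 0.0458) and rho = 0.90 (exact permutation p = 0.00456, adjusted p = 0.0804). M3, C2 and H1 were the highest rats for Per1 and for the brightest Per3 probe, and C1 was the lowest for both. The further Per3 probe well above background on all 8 arrays (r = 0.45 to the brightest) ordered the rats otherwise. On it C2 was highest at 6.25, XH3 lowest at 5.03 and M3 at 5.45. The relations of Per3 given here are those of its brightest probe, and those of the further probe alone are not given. Without H1 and M3, the rats farthest from the median of Per1, r was 0.84, with the group means removed 0.93, and with the means of the slide rows removed 0.95. Per1 and Cry2 were related in the same direction, with r = 0.87 (exact permutation p = 0.00521, adjusted p = 0.0469) and rho = 0.88 (exact permutation p = 0.00724, adjusted p = 0.0804). This relation was 0.74 without H1 and M3 and 0.87 with row means removed, and with group means removed it was 0.84 and no longer passed (adjusted permutation p = 0.106). For Cry2 the highest rats were M3, H1 and M2, all of them blast rats. Per3 and Cry2 had r = 0.78 (exact permutation p = 0.0234, adjusted p = 0.136) and rho = 0.69 (exact permutation p = 0.0694, adjusted p = 0.312), which rested on C1 and M3, since r was 0.41 without them. This pair passed after adjustment when the mean of a gene's probes was used.

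Cry1 ran opposite to Per3 across the rats, with r = −0.91 (exact permutation p = 0.00223, adjusted p = 0.0458) and rho = −0.90 (exact permutation p = 0.00456, adjusted p = 0.0804). C1, the lowest rat for the brightest Per3 probe, was the highest for Cry1, and C2, M3 and H1 were the lowest for Cry1. Without C1 and M3 r was −0.88, and with the group means or the row means removed it was −0.94. Toward Per1, Cry1 had r = −0.83 (exact permutation p = 0.0134, adjusted p = 0.1) and rho = −0.86 (exact permutation p = 0.0107, adjusted p = 0.0804), and −0.78 without H1 and M3. The cryptochromes had r = −0.72 to each other (exact permutation p = 0.0475, adjusted p = 0.178) and rho = −0.62 (exact permutation p = 0.115, adjusted p = 0.425), and −0.60 without C1 and C2. Neither Cry1 with Per1 nor Cry1 with Cry2 passed after adjustment, but with group means removed Cry1 with Per1 had r = −0.91 and passed. Cry2 and Tef, at r = −0.41 (exact permutation p = 0.314, adjusted p = 0.483) and rho = −0.26 (exact permutation p = 0.536, adjusted p = 0.689), had r = −0.89 and passed with row means removed, but 0.80 without C1 and M3.

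Arntl was most closely related to Per2 among the clock genes, with r = 0.85 (exact permutation p = 0.00305, adjusted p = 0.0458) and rho = 0.88 (exact permutation p = 0.00724, adjusted p = 0.0804). XH1 was the highest rat for both genes and C1 and H1 were next to it, though in a different order. Without C2 and M3 r was 0.85, with group means removed 0.86 and with row means removed 0.85. Arntl and Per2, known to peak at opposite times of day, were thus high in the same rats. With Cry1, Arntl had r = 0.76 (exact permutation p = 0.0374, adjusted p = 0.168), and 0.38 without C2 and M3. With Per1, Arntl had r = −0.45 (exact permutation p = 0.258, adjusted p = 0.468), −0.70 with group means removed and 0.30 without C2 and M3. Toward Per3, Arntl had r = −0.62 (exact permutation p = 0.106, adjusted p = 0.281) and rho = −0.52 (exact permutation p = 0.197, adjusted p = 0.466). This value rested on C2 and M3, since without them it was −0.01. Toward Dbp, Arntl had r = −0.03 (exact permutation p = 0.942, adjusted p = 0.962) and rho = −0.05 (exact permutation p = 0.935, adjusted p = 0.935), and 0.67 without C2 and M3, so that this value too rested on these rats. The fifth pair was Cry2 with the background signal of Nr1d2 (r = −0.88, exact permutation p = 0.00494, adjusted p = 0.0469; rho = −0.86, exact permutation p = 0.0107, adjusted p = 0.0804), which is −0.82 without C1 and M3. The hour of sampling was not given, and its part in these relations was not tested.

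The 5 relations kept their direction when each rat was left out in turn, with r between 0.88 and 0.97 for Per1 and Per3, 0.83 and 0.94 for Per1 and Cry2, −0.95 and −0.87 for Per3 and Cry1, 0.80 and 0.93 for Arntl and Per2, and −0.93 and −0.84 for Cry2 and Nr1d2. With C1, C2, C3, H1, M3, XH1 or XH3 left out, 0 of the 45 pairs passed the adjusted threshold, and with M2 left out 5 pairs passed, of which 3 were among the 5 above and the others were Clock with Tef and Per3 with Cry2. Without both C2 and M3, chosen after seeing the data as the arrays with the fewest spots above background, r was 0.83, 0.82, −0.87, 0.85 and −0.86 in the same order and 0 pairs passed. Each row of the slide held 4 rats, so a correlation within a row would be imprecise, and none is given.

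Many other probes had relations of this size to the clock genes. Of the other probes well above background on all arrays, 5.28% had a larger correlation with Per3 in size than Per1 had, and 6.97% a larger one than Cry1 had. From the other side, 2.1% had a larger one with Per1 than Per3 had, and 4.34% a larger one with Cry1 than Per3 had. For Arntl, Per2 was 75th of 16872 probes by r, so that 0.439% of probes had a higher one and 0.771% a larger one in size, while for Per2, Arntl was 431st and 3.18% of probes had a larger one in size. For Cry2, Per1 was 67th of 16872, with 1.98% larger in size, while for Per1, Cry2 was 740th, with 9.78% larger in size. The probes most like Arntl belonged to NM_173314 (r = 0.94) and NM_001105828 (r = 0.94), and those most like Dbp were both of NM_012995 (r = 0.90 and 0.89), over the 8 rats. The gene table used here did not pair these accessions with a symbol.

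The signal of the arrays was related to Per3 by Pearson's r, and its relations with the other clock genes did not pass after adjustment. The share of spots well above background was 73.0% in C1, 66.5% in C2 and 68.8% in C3, and 70.9% in M2, 65.9% in M3, 69.1% in H1, 69.1% in XH1 and 68.9% in XH3. The median processed signal was 280.5, 90.9 and 105.8 in C1, C2 and C3, and 179.9, 93.3, 142.1, 114.1 and 116.9 in M2, M3, H1, XH1 and XH3. C2 and M3 thus had the weakest arrays and C1 the strongest, and the same rats stood at the ends for the brightest Per3 probe. On the further Per3 probe well above background on all arrays, M3 did not stand at an end. Across the 8 rats, the share of spots above background had r = −0.92 with Per3 (exact permutation p = 0.00114, adjusted over 30 relations p = 0.0342; rho = −0.81, exact permutation p = 0.0184, adjusted p = 0.243), and −0.79 without C1 and M3. Of the probes well above background on all arrays, 0.99% had a larger correlation with that share in size. For the other relations given here that portion was higher, at 5.38% for Cry1, 20.2% for Arntl, 21.6% for Per1, 28.2% for Tef, 34.4% for Cry2 and 43.8% for Per2, so that many other probes followed the share as closely as these genes did. With Cry1 it had r = 0.86 (exact permutation p = 0.0063, adjusted p = 0.0945; rho = 0.81, exact permutation p = 0.0184, adjusted p = 0.243), and 0.75 without C1 and M3. With Arntl it had r = 0.75 (exact permutation p = 0.0278, adjusted p = 0.163; rho = 0.77, exact permutation p = 0.0323, adjusted p = 0.243), and 0.62 without C1 and M3. With Per2 it had r = 0.59 (exact permutation p = 0.117, adjusted p = 0.27; rho = 0.78, exact permutation p = 0.0295, adjusted p = 0.243), and 0.36 without C1 and M3. The relations with Per1 (r = −0.74, exact permutation p = 0.0349, adjusted p = 0.163; rho = −0.60, exact permutation p = 0.124), Tef (r = 0.70, exact permutation p = 0.0499, adjusted p = 0.178; rho = 0.68, exact permutation p = 0.0701) and Cry2 (r = −0.66, exact permutation p = 0.0737, adjusted p = 0.201; rho = −0.37, exact permutation p = 0.365) rested on C1 and M3, without which they were −0.40, −0.02 and 0.08. The median signal, on the log2 scale, had relations that 2 rats moved in either direction. Its r was −0.78 with Per3 (exact permutation p = 0.0187, adjusted p = 0.163; rho = −0.74, exact permutation p = 0.0458), 0.72 with Cry1 (exact permutation p = 0.038, adjusted p = 0.163; rho = 0.71, exact permutation p = 0.0576) and 0.76 with Tef (exact permutation p = 0.0266, adjusted p = 0.163; rho = 0.67, exact permutation p = 0.0831). Without C1 and M2 these were −0.35, 0.38 and 0.44. Its r was 0.65 with Arntl (exact permutation p = 0.0718, adjusted p = 0.201; rho = 0.69, exact permutation p = 0.0694) and 0.45 with Per2 (exact permutation p = 0.272, adjusted p = 0.408; rho = 0.62, exact permutation p = 0.115), and 0.83 and 0.67 without C1 and M2. The part of array signal in the relations between the clock genes, that of Arntl and Per2 included, was not tested.

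**Figure D3:**
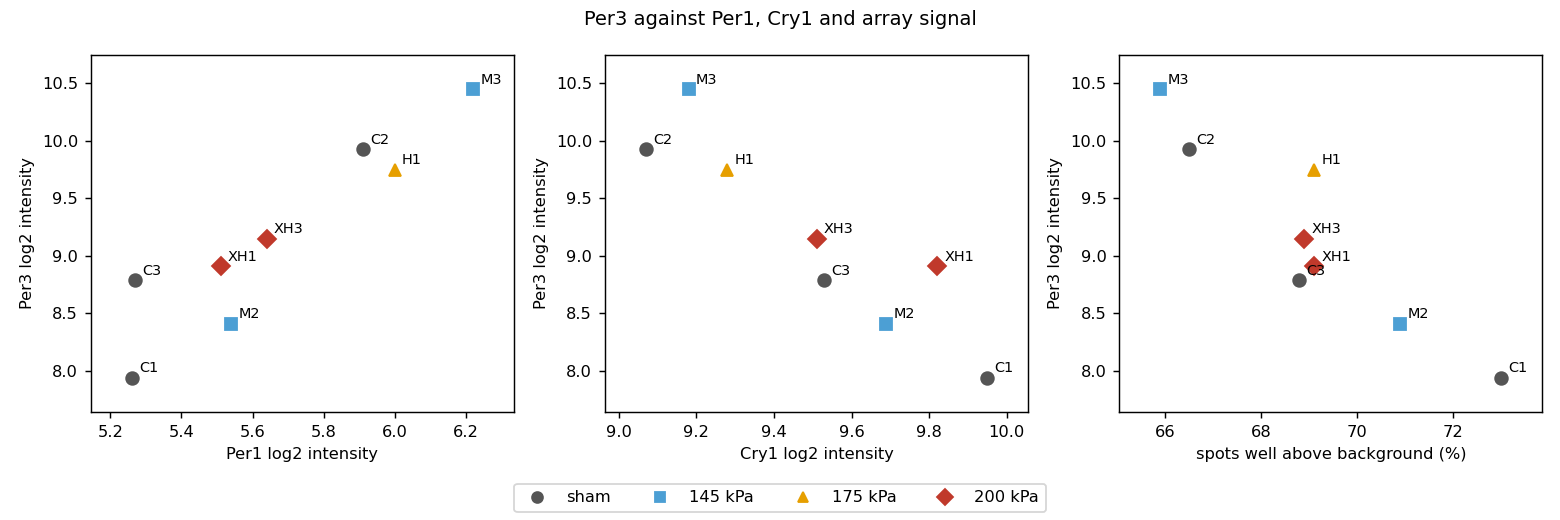
Log2 intensity of the brightest Per3 probe (vertical axes) against that of Per1, that of Cry1, and the percent of spots well above background on the array, with 1 point for each of 8 rats. Per3 climbs with Per1 (r = 0.93) and drops with Cry1 (r = −0.91) and with the share of spots above background (r = −0.92), and C1 and M3 lie at opposite ends of each panel except that C2 is lowest for Cry1.

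Red cell RNA is marked by Hbb, which encodes beta globin. The brightest Hbb probe was at 10.21, 13.96 and 11.64 in C1, C2 and C3, and at 17.42, 13.34, 15.37, 13.31 and 14.43 in M2, M3, H1, XH1 and XH3. Neither this probe nor the gene's other one was saturated on any array. C1 and C3 were lower than every blast rat, and C2 lay among the blast rats. The mean was 11.94 ± 1.90 (SD, n = 3) in sham control and 14.77 ± 1.71 (SD, n = 5) in blast rats, a difference of 2.84 (SE 1.17, 95% confidence interval 0.11 to 5.57, exact permutation p = 0.0893, limma adjusted p = 0.9999). A further Hbb probe had a difference of 3.46 (exact permutation p = 0.0357, limma adjusted p = 0.9999). Across the rats, Cry2 was related to the brightest probe with r = 0.70 (exact permutation p = 0.0535, adjusted p = 0.178), rho = 0.64 (exact permutation p = 0.0962, adjusted p = 0.289), and 0.51 without C1 and M2. Dbp had r = 0.58 (exact permutation p = 0.134, adjusted p = 0.287) and rho = 0.45 (exact permutation p = 0.267, adjusted p = 0.472), and 0.67 without these rats. Per1 had r = 0.42 (exact permutation p = 0.304, adjusted p = 0.428) and rho = 0.60 (exact permutation p = 0.132, adjusted p = 0.305), and 0.59 without them. Clock had r = −0.45 (exact permutation p = 0.272, adjusted p = 0.408), but 0.47 without C1 and M2, and the background signal of Nr1d2 had r = −0.42. Of the probes well above background on all arrays, 1.97% had a larger correlation with Hbb in size than Cry2 had. That portion was 5.7% for Dbp, 14.2% for Clock and 16.7% for Per1.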

How the data were processed

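RNA of whisker follicles from 3 sham control and 5 blast rats, grouped by the pressures in the labels, was measured on Agilent one-colour arrays. The authors made the deposited intensity of each spot with Feature Extraction (version 10.7.1.1 in the file headers), which subtracts background; their methods name a later release. A quantile-normalized table on the log2 scale, also deposited by the authors, was used as an alternative.

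From the intensities, control and outlier spots were left out, log2 values were averaged over the spots of each probe, arrays were quantile normalized on the linear scale, and an intensity of 3 was the lower limit before the final log2. Quantile normalization and the limit of 3 are named in the study's methods, which set the limit on spots and do not mention dropping outlier spots or averaging probes first. Blast was compared with sham control, and a slope on pressure was fitted among blast rats, with limma 3.58.1 (lmFit, eBayes) in R 4.3.3, with Benjamini-Hochberg adjustment over all probes. Two-sided exact permutation tests covered the 56 ways to part the rats (smallest p 0.0179), the orders of 5 blast rats for a slope, and the 40320 orders of 8 rats for a correlation, adjusted over 45 pairs of genes, or over 30 relations with array properties. Each rat has 1 array, so p-values reflect the spread between rats, and the number of arrays limits the precision. The steps were tested on simulated data, and no result of that test is given here.

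All 10 genes are named, each by its probe of highest mean intensity; members and lists were chosen with earlier results of these data known. Symbols come from the rule that lists the accessions: the gene table used here (Rattus rattus, Rrattus_CSIRO_v1) matched 0 of the accessions. Hbb was found by the identifier that the paper lists with its qPCR primers. Other clock genes and cell type markers could not be named from the gene table and were not analysed here. Alternatives were scaling to the 75th percentile, a limit of 8, outlier spots kept, normexp, a filter on dim probes, array weights, the slide row or the title number as a block, an intensity trend with robust eBayes, analysis of variance, the probe with the lowest p, the mean of a gene's probes, and each rat left out. Leaving out C2 and M3 and removing row means were chosen after seeing the data.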

Additional observations from a re-analysis of the deposited data

How the results depend on the processing

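Under all alternatives run, 0 clock genes passed an adjusted p under 0.05, in limma or the analysis of variance, for blast against sham control (21 settings) and for the trend with pressure (16 settings). At an unadjusted p under 0.05, the count of 0 for blast against sham control became 2 without C2 and M3 (Cry2 and Dbp, with 2.84% of all probes), an alternative chosen after seeing the data. That count ranged from 0 to 2 with each rat left out (2 without C2, with 2.90% of all probes). The exact permutation count of 0 ranged from 0 to 2 likewise, and the share of all probes by that test is not given here. The count of 0 for the trend became 1 with array quality weights (Cry2; 5.99% of all probes) and 1 for 200 kPa against 145 kPa (Clock; 4.23%), and ranged from 0 to 3 with each rat left out (3 without M2, with 15.8%). The count of 5 correlated pairs became 1 with scaling to the 75th percentile, 3 with a limit of 8, 3 with outlier spots kept, 0 with normexp, 0 by Spearman's rho and 0 without C2 and M3. The values of r for Arntl-Per2, Per1-Per3, Per1-Cry2, Per3-Cry1 and Cry2-Nr1d2 stayed close to the main ones, at 0.85, 0.95, 0.85, −0.91 and −0.83 with that scaling and 0.82, 0.90, 0.82, −0.89 and −0.89 with normexp. With a limit of 8, Cry2-Nr1d2 moved further, to −0.78 (adjusted permutation p = 0.134), and the other pairs stood at 0.85, 0.93, 0.87 and −0.91 in the same order. The count was 7 with the mean of a gene's probes (all 5 pairs, with Per3-Cry2 and Per3-Nr1d2 gained), 6 with row means removed (Cry2-Tef gained; chosen after seeing the data) and 5 with group means removed (Per1-Cry2 lost, Per1-Cry1 gained). The count ranged from 0 to 5 with each rat left out. Fewer rats allow fewer orders, also without M2, where 5 pairs passed, and the part of this or of any other cause in the counts was not tested.

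The difference of Cry1 turned to 0.05 when arrays were weighted by quality. That weighting also gave 0.38 for Arntl, 0.45 for Per2, 0.23 for Per3 and 0.27 for Dbp, and normexp gave 0.08 for Per1. When single rats were left out, differences ranged from −0.25 to 0.19 for Cry1, −0.03 to 0.97 for Per3 and −0.08 to 0.53 for Per2. Clock and the remaining 5 genes above background on all arrays kept their direction in every setting, with differences from 0.05 to 0.46 for Arntl, 0.08 to 0.52 for Per1, 0.29 to 0.81 for Cry2, 0.03 to 0.32 for Dbp, −0.48 to −0.17 for Tef and −0.87 to −0.28 for Clock. With a replicate block for the number in the title, the count for blast against sham control was 0. Rats with the same number had deviations correlated between −0.58 and 0.51. Few rats share a number, so these correlations cannot decide whether the numbers pair them.

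Clock in M3 and Nr1d2 on all arrays were limited by signal over background.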
